A study of Homo sapiens with 2 samples.

Results

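The 9 genes described here encode claudins (CLDN1, CLDN2, CLDN3, CLDN4, CLDN7 and CLDN12), the transmembrane junction proteins occludin (OCLN) and F11R, and the cytoplasmic scaffold ZO-1 (TJP1). They were taken by gene symbol, with every probe set that the platform annotation gives to that symbol alone. For 8 of the 9 genes this found 15 probe sets, of 54613 probe sets on the array that are not controls, and F11R was not analysed here. A549 cells, which derive from a human lung carcinoma, were cultured for 12 h with 1 ng/ml TGF-β or without it, and RNA of each culture was hybridized to 1 Affymetrix expression array. With 1 array per condition no difference could be set against the spread between cultures, so no p-value is given and every fold is the ratio of 2 signals. The values are MAS5 intensities, a single linear signal for each probe set, as deposited by the authors.

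Tight junctions seal the space between neighbouring epithelial cells near their apical side. Claudins form the strands of the seal and decide which ions pass, occludin lies in the same strands, and ZO-1 ties these proteins to the actin cytoskeleton. CLDN2 forms a pore for cations and water, whereas CLDN1 and CLDN4 are counted among the sealing claudins, and loss of junction proteins is a known part of the response of many epithelial cells to TGF-β.

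Both arrays had been scaled to the same trimmed mean, and a transcript was taken as above background when its signal exceeded the highest of 27 Bacillus subtilis probe sets, 56.6 on the TGF-β array and 45.8 on the control array. A probe set was used for counts when its 2 signals averaged at least 48.7, the median over probe sets, and the brightest such probe set stood for its gene, which left 12375 genes. The epithelial label of the line held, since EPCAM read 1616 with TGF-β and 2176 without it, keratin 8 (KRT8) 19630.4 and 16817, and keratin 18 (KRT18) 38248 and 33810.3. Of the other epithelial markers, keratin 19 (KRT19) read 991 with TGF-β and 1492 in the control, and CDH1 read 846 and 1952. The EPCAM, KRT8, KRT18 and CDH1 probe sets have names that mark targets shared between transcripts, whereas the KRT19 probe set does not. SMAD7, which Smad proteins induce, read 1619.6 with TGF-β and 786 in the control. Of 4 fibroblast markers, none was above background with TGF-β and 1 was in the control, while 1 of 3 endothelial and 2 of 3 immune markers were above it on both arrays. The summed signal of the immune markers was 159 with TGF-β and 273 in the control, of which CD14 gave 63.0 and 190.5. CD3E was the other immune marker above background, at 74.8 and 48.8, and PTPRC was below it on both arrays. For the fibroblast list the sums were 121 and 102, and for the endothelial list 88.1 and 81.7, and their part in the results was not tested. Fewer transcripts per cell and fewer cells with the transcript cannot be told apart in such RNA.

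Of the 8 measured genes, 2 differed by at least 2-fold between the arrays, in opposite directions. CLDN4 was higher with TGF-β, and OCLN was lower. CLDN1, CLDN12, CLDN2, CLDN7 and TJP1 changed by less than 2-fold, and CLDN3 was not above background on either array. Of the 7 genes that passed the filter on dim signals, 1 was thus higher and 1 was lower. CLDN4 passed this filter only through its signal with TGF-β. Among all 12375 genes the shares past 2-fold were 3.94% higher and 2.96% lower, so the members' counts rest on a single gene in each direction. Of the 6 members with both signals above background, none was higher by 2-fold and 1, OCLN, was lower, while among the 11513 genes with such signals 2.94% were higher and 1.35% lower. The median log2 fold change of these 6 genes was 0.04, against -0.03 over the 11513 genes.

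**Figure D1:**
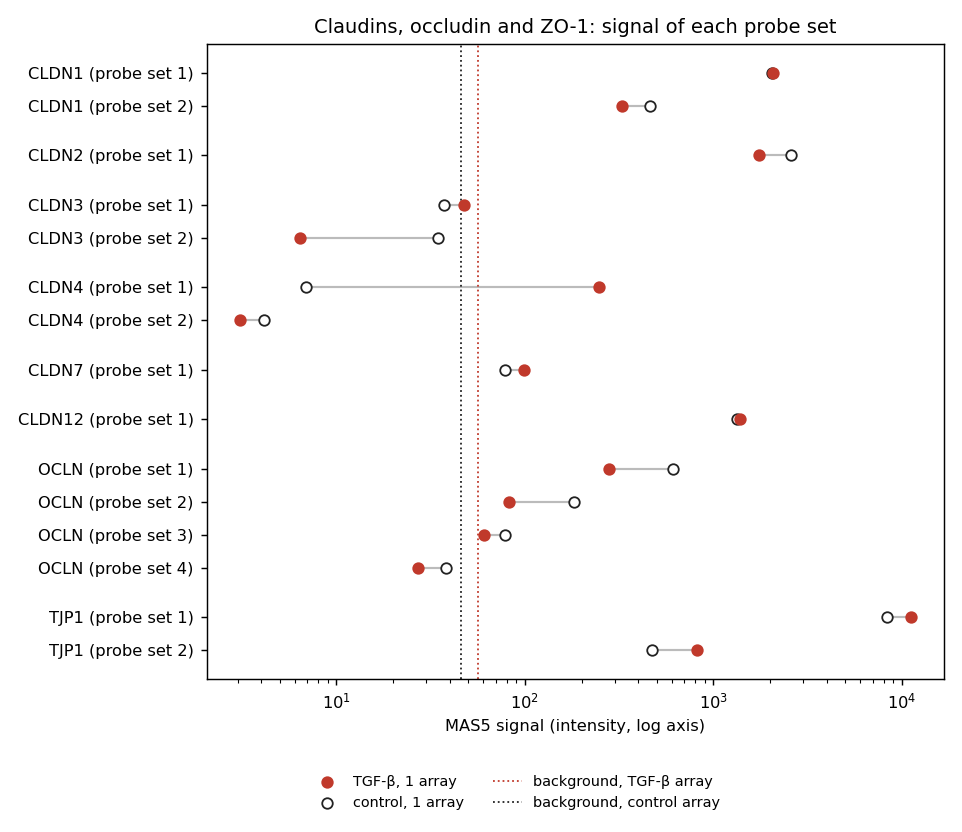
Signal of each of the 15 probe sets with TGF-β (red points) and in the control (open points), as MAS5 intensity on a log axis, 1 array each, with dotted lines at the background level of each array (56.6 and 45.8). Probe sets of a gene are numbered from the brightest. One CLDN4 probe set crosses the background lines, and all 4 OCLN probe sets lie to the left with TGF-β.

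CLDN4, a claudin of lung, gut and kidney epithelium and a receptor of the Clostridium perfringens enterotoxin, had 2 probe sets. The brighter read 248 with TGF-β and 6.91 in the control. Only the signal with TGF-β was above background, and the rise was therefore at least 5.42-fold, computed against the background level of the control array. This bound is a log2 fold change of 2.44. Log2 fold changes of the probe sets nearest to it in brightness spread by 1.65, the widest value among the members. This spread is the measure described for OCLN below, and is over probe sets, not over cultures. The fall of OCLN, a log2 fold change of -1.13 with a spread of 0.33, was larger relative to its spread. The other CLDN4 probe set read 3.08 with TGF-β and 4.12 in the control, both under the background. The rise thus rests on 1 probe set. CLDN4 is among the genes that the study listed from these arrays, so its rise is not independent of that choice. Among the 12375 genes, 240 were above background with TGF-β only, and 614 were above background in the control only.

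The 250 bases before the start of CLDN4 and before the more upstream start of OCLN are shown because these were the only members past 2-fold. Both were read from the RefSeq promoter table of GRCh38.p14, on the plus strand, at chr7:73830746-73830995 for CLDN4 and chr5:69492297-69492546 for OCLN. Capitals mark 3 motifs on either strand, which are the Smad box CAGAC with its reverse complement GTCTG, the E-box CACCTG of SNAI and ZEB repressors with its reverse complement CAGGTG, and the AP-1 motif TGACTCA with its reverse complement TGAGTCA.
CLDN4: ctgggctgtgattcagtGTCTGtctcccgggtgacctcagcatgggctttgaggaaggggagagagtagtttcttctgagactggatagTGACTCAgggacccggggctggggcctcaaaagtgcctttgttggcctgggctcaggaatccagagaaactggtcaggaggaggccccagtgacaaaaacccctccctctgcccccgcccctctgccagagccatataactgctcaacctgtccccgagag
OCLN: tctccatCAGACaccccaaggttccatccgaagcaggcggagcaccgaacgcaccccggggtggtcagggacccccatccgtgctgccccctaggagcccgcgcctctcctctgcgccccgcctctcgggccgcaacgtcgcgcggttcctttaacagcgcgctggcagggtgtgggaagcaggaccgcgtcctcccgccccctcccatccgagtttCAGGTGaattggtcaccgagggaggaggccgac
The CLDN4 window held GTCTG 233 bases before the start and TGACTCA 161 bases before it, and no CACCTG. The OCLN window held CAGAC 243 bases and CAGGTG 33 bases before the start, and no TGACTCA. The window of the other OCLN start, not shown, held CAGGTG 133 bases before that start, and no CAGAC or TGACTCA. None of these matches overlapped another. Of 35116 such windows in the table, 38.0% held CAGAC, 17.5% held CACCTG and 4.20% held TGACTCA. The 8 measured members had 14 windows, of which 5 held CAGAC, 4 held CACCTG and only that of CLDN4 held TGACTCA. A match describes the letters of the window and was not tested for binding.

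CLDN3, which is often found together with CLDN4 in epithelia, lies beside it on chromosome 7, and RefSeq places 0 genes between them. One of its probe sets read 47.7 with TGF-β and 37.2 in the control, and the other read 6.41 and 34.5. All 4 signals were under the background of their array, so no fold is given. The window of CLDN3 held none of the 3 motifs. A rise like that of CLDN4 was not seen for its neighbour at the sensitivity of this array.

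OCLN was lower with TGF-β in each of its 4 probe sets. The brightest read 278 with TGF-β and 609.8 in the control, or 2.19-fold lower, and its log2 fold change was -1.13. Over the 500 probe sets nearest to it in brightness, log2 fold changes spread by 0.33 (their median absolute deviation scaled to an SD), and this spread is over probe sets, not over cultures. A second probe set read 82.0 with TGF-β and 182 in the control, 2.22-fold lower with a spread of 0.50. Both probe sets thus gave nearly the same fold at different brightness. The third read 60.6 and 78.6, above background on both arrays but only just so with TGF-β, and was 1.30-fold lower with a spread of 0.62. The dimmest was under the background with 27.2 and 38.3. Of 5610 genes with at least 2 probe sets above background on both arrays, 31 or 0.553% had 2 or more at least 2-fold lower. OCLN was among them with 2 of 3 such probe sets, and so was CXADR, described below, with 3 of 3. This count was made after the OCLN values had been seen. RefSeq lists a transcribed pseudogene, OCLNP1, and how far the OCLN probe sets also bind its RNA was not tested.

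**Figure D2:**
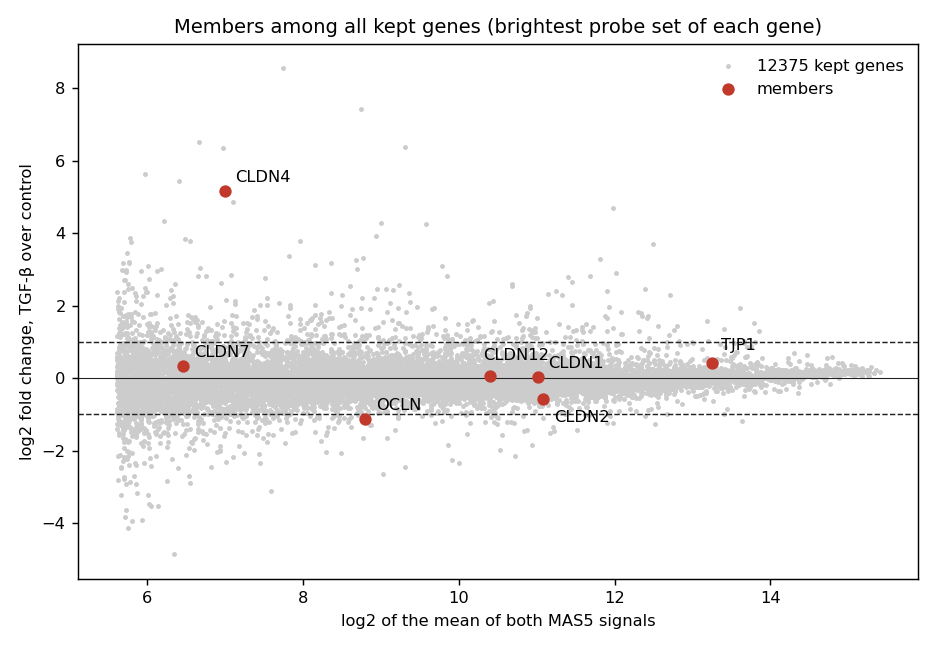
Log2 fold change (TGF-β over control, y axis) against the log2 of the mean of both signals (x axis) for the brightest probe set of 12375 genes (grey) and of the 7 members that passed the filter (red), with dashed lines at 2-fold. CLDN4 lies at 5.17, a value that depends on a control signal under the background and is no measure of its size, OCLN at -1.13, and the other 5 members lie between the lines.

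CLDN2, the pore-forming claudin, read 1743 with TGF-β and 2592 in the control on its only probe set. The signal was thus 1.49-fold lower, and its log2 fold change was -0.57 at a spread of 0.26. CLDN1, which is needed for the barrier of skin, read 2079 with TGF-β and 2047 in the control on its brightest probe set, a log2 fold change of 0.02. Its other probe set read 325 and 459, or 1.41-fold lower, and its log2 fold change was -0.50 at a spread of 0.36. The brightest CLDN1 probe set was thus within its spread of 0.27, while the dimmer one was lower. The name of the dimmer CLDN1 probe set marks targets shared between transcripts. CLDN12, a claudin that lacks the terminal motif by which most claudins bind ZO-1, read 1383 and 1331, a log2 fold change of 0.06 with a spread of 0.29. A further probe set that the annotation assigns to CLDN12 together with another gene had no signal above 17.1 and was left out. CLDN7, a claudin found also along the lateral membrane, read 98.7 with TGF-β and 78.2 in the control, 1.26-fold higher, and its log2 fold change of 0.34 was within the spread of 0.50.

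TJP1, the scaffold ZO-1, was higher with TGF-β in both of its probe sets. The brightest read 11159 with TGF-β and 8347 in the control, 1.34-fold higher, and the other read 821 and 473, 1.74-fold higher. The name of the dimmer TJP1 probe set marks targets shared between transcripts. The log2 fold changes were 0.42 and 0.80, and the spreads at these brightnesses were 0.17 and 0.27. TJP1 thus moved in the opposite direction to OCLN, which binds ZO-1 in the junction, but by less than 2-fold. Over all members, 10 of the 15 probe sets were above background on both arrays, and 5 of these were higher and 5 lower with TGF-β. The 5 lower ones include 3 of OCLN, and probe sets of the same gene are not independent. Of all genes with both signals above background, 46.4% were higher by their brightest probe set, so the split is near that share.

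The other genes of the tight junction were examined with a list of 52 genes, of which 44 had a probe set and 27 passed the filter. Of these, 26 had both signals above background, and among the 26 none was higher by 2-fold or more and 1, CXADR, was lower. Over all genes with such signals 2.94% were higher and 1.35% lower, and a count of 1 gene among 26 is too small to compare with these shares. The median log2 fold change of the 26 was -0.05. The remaining gene, TJP3, passed the filter only through its control signal. Of 14 other claudins with a probe set, 4 passed the filter and none of these changed by 2-fold, with log2 fold changes between -0.66 and 0.73. CLDN10, another claudin that forms ion pores, read 722 with TGF-β and 654 in the control. CLDN15 read 277 and 228, and CLDN23 read 184 and 289.6. CLDN5, the claudin of endothelium, was under the background with 9.80 and 16.6, and so were all 4 probe sets of CLDN18, a claudin of alveolar epithelium and stomach. CLDN5 and CLDN18 were thus not detected above background.

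CXADR, the receptor of coxsackievirus and adenovirus and an adhesion protein of tight junctions, was lower with TGF-β in all 4 of its probe sets. The brightest read 877 with TGF-β and 1851 in the control, 2.11-fold lower, a log2 fold change of -1.08 with a spread of 0.30. The next probe sets read 489.6 and 1104, 2.25-fold lower, and 83.1 and 254, 3.05-fold lower. The dimmest read 33.4 with TGF-β, under the background, and 71.2 in the control, at least 1.26-fold lower. MARVELD2 (tricellulin), which closes the corners where cells meet, read 639 and 674, and LSR, which recruits it, read 396 and 298. Neither reached 2-fold.

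**Figure D3:**
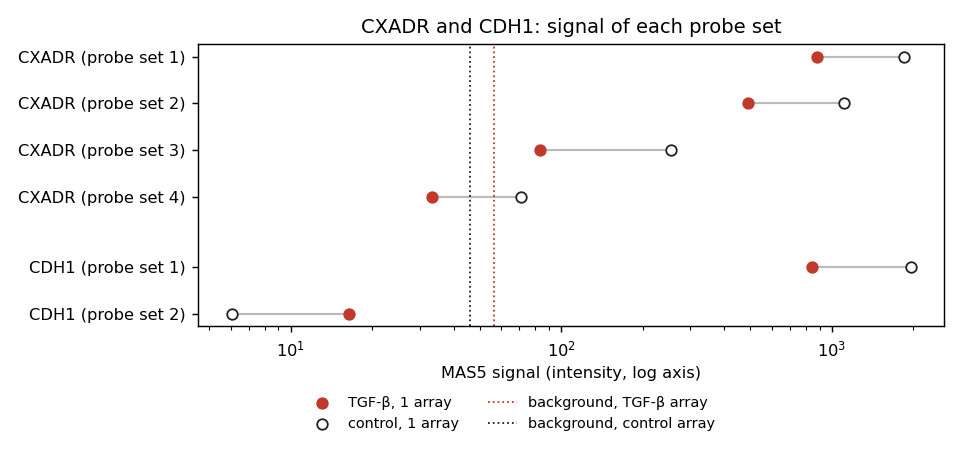
Signal of each probe set of CXADR and CDH1 with TGF-β (red points) and in the control (open points), as MAS5 intensity on a log axis, 1 array each, with dotted lines at the background levels of 56.6 and 45.8. The 4 CXADR probe sets lie lower with TGF-β, as does the only CDH1 probe set above background.

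Of 18 other scaffold and polarity genes that passed the filter, 17 had both signals above background, and each of the 17 changed by less than 2-fold. Over all genes with such signals 2.94% were at least 2-fold higher and 1.35% lower, and 17 genes are too few to compare with these shares. TJP3, the scaffold ZO-3, read 33.2 with TGF-β, under the background, and 96.2 in the control on its brightest probe set. It was thus at least 1.70-fold lower there, and a fall of 2-fold cannot be read from it. Its other probe set read 4.13 with TGF-β and 3.66 in the control, both under the background, so the fall rests on 1 probe set. YBX3, a transcription factor that binds ZO-1, read 19037 with TGF-β and 19271 in the control. AMOTL2, an angiomotin that binds polarity proteins, read 3714 and 2979, and PRKCI, the atypical protein kinase C of the polarity complex, 3632 and 3002. The 17 genes had a median log2 fold change of -0.08, with 7 genes above 0 and 10 below it. Of all genes with such signals, 46.4% were above 0.

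Adherens junctions lie below the tight junction and join cells through cadherins. Of 9 of their genes that passed the filter, 8 had both signals above background. Of these 8, 1 was at least 2-fold lower and none at least 2-fold higher. Over all genes with such signals 1.35% were lower and 2.94% higher. A log2 fold change above 0 was found in 7 of the 8, and in 46.4% of all genes with such signals. The lower gene was CDH1 (E-cadherin), which read 846 with TGF-β and 1952 in the control, 2.31-fold lower, on its brightest probe set, and 16.4 and 6.06, both under the background, on its other. The names of both CDH1 probe sets mark targets shared between transcripts, so CDH1 has no value without such probe sets. NECTIN4, an adhesion protein of the nectin family, read 96.5 with TGF-β and 33.3 in the control, under the background, at least 2.11-fold higher, and it passed the filter only through its signal with TGF-β. VCL (vinculin) and the catenins CTNNB1 and CTNNA1 had log2 fold changes of 0.57, 0.56 and 0.53, all less than 2-fold. The median log2 fold change of the 8 genes was 0.54.

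**Figure D4:**
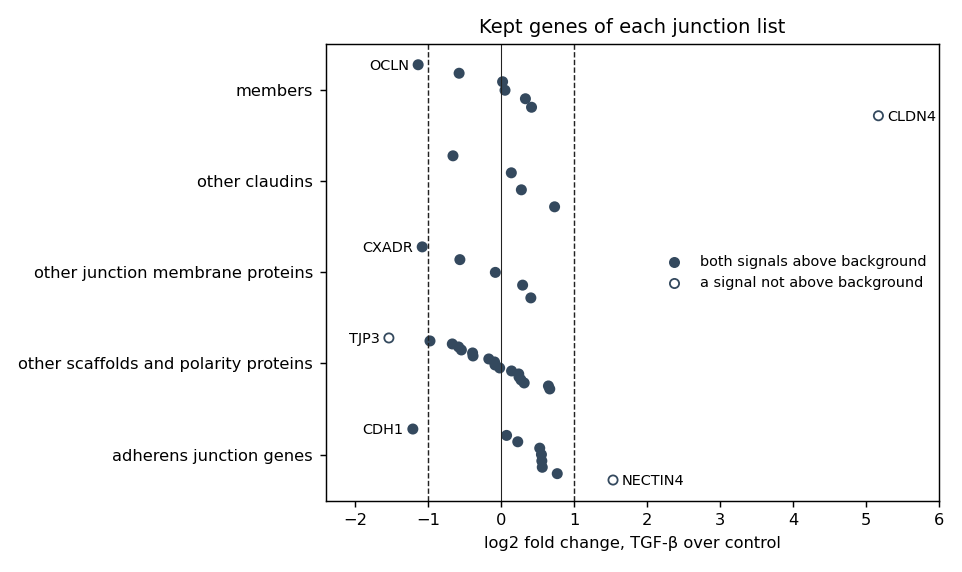
Log2 fold change (TGF-β over control, x axis) of each gene that passed the filter, by list, with dashed lines at 2-fold. Filled points had both signals above background and open points had a signal that was not. Genes past 2-fold by their deposited signals are named, and of these OCLN, CXADR and CDH1 had both signals above background, each lower with TGF-β.

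The directions of OCLN and CLDN4 were the same in every processing setting that gave them a value. The log2 fold change of OCLN lay between -1.15 and -1.01, and that of CLDN4 between 2.28 and 5.26, with the lower values from the settings that raise dim signals or add an offset. CLDN1 changed sign between settings, from 0.07 with loess to -0.50 by its probe set of largest change, and its log2 fold change stayed under 2-fold in each.

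**Figure D5:**
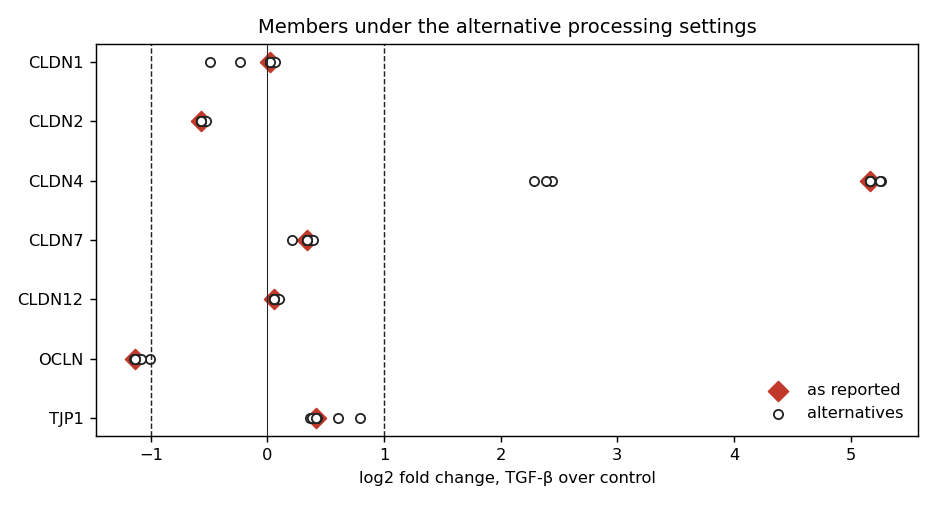
Log2 fold change (TGF-β over control, x axis) of the 7 members as reported (red diamonds) and under the alternative settings (open points), with dashed lines at 2-fold. OCLN stays left of the lower line, CLDN4 stays right of the upper line at 2.28 or above, and the other members stay between the lines.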

How the data were processed

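Expression was measured in A549 cells on 1 array with TGF-β and 1 control array. The intensities deposited by the authors are MAS5 signals, a tool that the submitters' processing notes name with no version; for its settings, the sources used here give nothing. The mean signal without the highest and lowest 2% was 500 on both arrays. MAS5 signals near background vary widely in ratio, so a fold with a signal under the background level is given as a bound.

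Of 54613 probe sets, 41091 carried 1 gene symbol, updated through RefSeq identifiers, 1801 carried several and 11721 were not listed in the annotation. Fold changes were computed with Python 3.11.15, numpy 2.4.6 and pandas 2.3.3, loess with statsmodels 0.14.6 and plots with matplotlib 3.10.9. The spread at a brightness used the 500 nearest probe sets. The rule for calls was checked on simulated arrays. No test was run, because each condition had 1 array, whose number limits the precision. All 9 members and, from the other lists, genes changed at least 2-fold and the 3 brightest were to be named; CLDN5, CLDN18 and the genes of the closing section were added after their values were seen. The members and lists were chosen with earlier results of these data known. The 11 alternatives changed filter, floor, offset, scaling or probe set choice.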

Additional observations from a re-analysis of the deposited data

How the results depend on the processing

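These 11 alternatives show how values depend on processing, not how cultures vary. When only mean signals of at least 349, the 75 percentile, were used, CLDN4 gave no value and 0 members were higher. Its log2 fold change was 2.44 with signals raised to background, 2.28 with signals raised to the array median and 2.39 with 50 added. By deposited signals 2 other tight junction genes, CXADR and TJP3, were lower, and CXADR alone (1) under each of these 4 settings; there were 4 when genes took their probe set of largest change and 6 without a filter, where 5 were higher. Over the array, 487 genes higher and 366 lower turned into 2110 and 2395 with no filter, 197 and 63 at the 75 percentile, and 295 and 134 with 50 added. Lower genes numbered 204 with signals raised to background, and 596 when genes took their probe set of largest change, for which the cause was not tested. Settings for dim signals change dim genes by construction. CDH1 gave no value without shared-target probe sets. The brightest probe sets of LSR, YBX3, CTNNA1 and VCL are also of this kind. The median log2 fold change of the members that passed the filter (0.06 for the 7 genes) lay between 0.02 and 0.10 in settings with a filter. It was 0.20 over 8 members without a filter. Signal over background limits CLDN3, CLDN4 and TJP3. No paired analysis was possible because each condition had 1 array.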

Other observations

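Of the claudins that did not pass the filter on dim signals, 2 were above background on the TGF-β array only and 1 on the control array only. This count was made after their values had been seen. The same share over all genes that failed the filter was not computed, so the count is no result about claudins. CLDN17 read 80.4 with TGF-β and 12.4 in the control, at least 1.75-fold higher, and CLDN14, a claudin of the inner ear and kidney, read 73.3 and 18.7, at least 1.60-fold higher. Both are single probe sets near the background of 56.6 on the TGF-β array. In the other direction, 1 probe set of CLDN11, a claudin of myelin, read 4.32 with TGF-β and 46.6 in the control, where the background was 45.8, and no fold can be given. TJAP1, a tight junction-associated protein, had probe sets that disagreed, since the brightest read 846 with TGF-β and 765 in the control, while the other read 5.42, under the background, and 93.0.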
